A study of Mus musculus with 14 samples.

Results

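The comparison described here sets LSK cells of mice treated with IL-1β against LSK cells of mice treated with PBS, and its members are the 5 of 14 samples of the series that carry those labels. LSK cells are Lin-Sca1+c-kit+ cells, the bone marrow fraction that holds the hematopoietic stem cells and multipotent progenitors. They were sorted after lineage depletion from the marrow of C57BL/6 mice with a heterozygous Jak2V617F allele, the activating mutation of myeloproliferative neoplasms. By the methods of the study, Mx1Cre switches the allele on after injection of pI-pC. All 5 samples carry the allele, so no sample shows the response of wild-type LSK cells. The PBS group has 3 libraries (replicates 1, 2 and 3) and the IL-1β group has 2 (replicates 1 and 2). IL-1β was injected intraperitoneally at 0.5 μg per dose, with 3 doses per week for 16 weeks, and the other group received PBS. The dose unit is read here as micrograms, since the labels write it as grams. The labels give neither the age nor the sex of the mice. The results of the study describe this treatment in lethally irradiated recipients of marrow from pI-pC induced Jak2V617F mice. The labels do not say whether the sequenced mice were such recipients, so cells that a host still had cannot be told apart. Mx1Cre acts in many tissues, and pI-pC itself sets off interferon, and the labels give neither its dose nor its timing.

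IL-1β is an inflammatory cytokine that binds the receptor Il1r1 together with its partner Il1rap and signals through Myd88 and IRAK kinases to NF-κB. In hematopoietic stem cells it is known for driving myeloid differentiation at the cost of lymphoid output and of self-renewal. LSK cells are a mixture in which stem cells, lymphoid-primed and myeloid-primed progenitors each carry low levels of the genes of their later fate.

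RNA was depleted of ribosomal RNA and sequenced, and the deposited values are counts of read pairs on each of 55487 genes. The PBS libraries held 12172400, 13241793 and 16271408 counted read pairs, and the IL-1β libraries 8641124 and 4393233. The IL-1β libraries were thus the shallowest, and depth cannot be told apart from treatment. When every library was thinned to the smallest total, 51 genes were called higher and 47 lower, and 41 of the 42 and 38 of the 41 genes called at full depth remained. A count of 3 corresponds to between 0.175 and 0.744 CPM (counts scaled to library size with TMM factors) in the 5 libraries, and it covers counting error only. Genes with at most 3 counts in each library of a group are described by their counts, and enter list medians also at their bound. Of all genes, 13132 passed the count filter and were tested with the quasi-likelihood test of edgeR, with p adjusted after Benjamini and Hochberg. Called genes are those with an adjusted p below 0.05 together with a log2 fold change (IL-1β over PBS) larger than 0.5 in size.

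The label was checked against the markers of the gate. Kit, the stem cell factor receptor that the gate requires, was at 564, 422 and 605 CPM with PBS and 402 and 299 CPM with IL-1β. Ly6a, which encodes Sca1, was at 27.5, 42.1 and 32.3 CPM with PBS and 15.2 and 26.5 CPM with IL-1β. In the LK libraries of the series, from the Lin-c-kit+ gate, Ly6a was at 0.715, 0.257 and 0.787 CPM with PBS and 1.99 and 0.642 CPM with IL-1β. Cd34, a marker of progenitors, was at 706, 521 and 793 CPM with PBS and 395 and 429.6 CPM with IL-1β in LSK cells. Both gate markers were thus present in all 5 LSK libraries, and the IL-1β libraries lay below all PBS libraries for Kit (log2 fold change -0.60, standard error 0.28), Ly6a (-0.72, 0.36) and Cd34 (-0.71, 0.27). None of these differences passed the adjustment (edgeR's quasi-likelihood test, adjusted p = 0.282, 0.310 and 0.218). The log2 fold change was -0.29 after length correction and -0.38 without IL-1β replicate 2 for Kit, -1.13 after length correction, -0.36 without IL-1β replicate 1 and -1.14 without IL-1β replicate 2 for Ly6a, and -0.45 after length correction for Cd34. Jak2 was at 97.8, 78.3 and 85.6 CPM with PBS and 74.96 and 53.3 CPM with IL-1β (edgeR adjusted p = 0.392, with a log2 fold change of -0.44 and a standard error of 0.26), and the log2 fold change was -0.72 without IL-1β replicate 1 and -0.20 without IL-1β replicate 2. Xist, the RNA that coats the inactive X, had 9502, 12564 and 17985 counts in the PBS and 3371 and 563 in the IL-1β libraries, and the Y-linked genes Ddx3y, Eif2s3y, Kdm5d and Uty had between 0 and 2 counts in each library. Every library therefore had Xist and almost no Y-linked RNA. Xist, at 695, 984 and 1052 CPM with PBS and 410.2 and 139.6 CPM with IL-1β, was below all PBS libraries in both IL-1β libraries without passing the test (edgeR adjusted p = 0.107, with a log2 fold change of -1.72 and a standard error of 0.44). Its fold change was -1.25 after length correction, -2.71 without IL-1β replicate 1 and -1.12 without IL-1β replicate 2.

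Among the PBS libraries, replicate 2 stood apart, with 3279 and 3359 genes more than 2-fold away from replicates 1 and 3, against 1054 genes between those 2. The IL-1β libraries differed from each other by more than 2-fold at 2346 genes. Gene length also moved with treatment. With the tested genes split by exonic length into 5 equal classes, the median log2 fold change went from 0.33 in the shortest class (53 to 2181 bases) to -0.37 in the longest (7315 to 123179 bases). Relative to the mean of the PBS libraries, the median of the shortest class was 0.20 and 0.51 in the IL-1β libraries and -0.0948, -0.00211 and 0.12 in the PBS libraries. For the longest class the medians were -0.14 and -0.60 with IL-1β and 0.09, -0.01 and -0.06 with PBS. IL-1β replicate 2 was the steepest, and without it the medians of the shortest and longest classes were 0.12 and -0.16. A fit that removes this trend in each library, chosen after seeing the data, is given beside the median of each list, and the part of RNA quality in the trend was not tested.

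**Figure D1:**
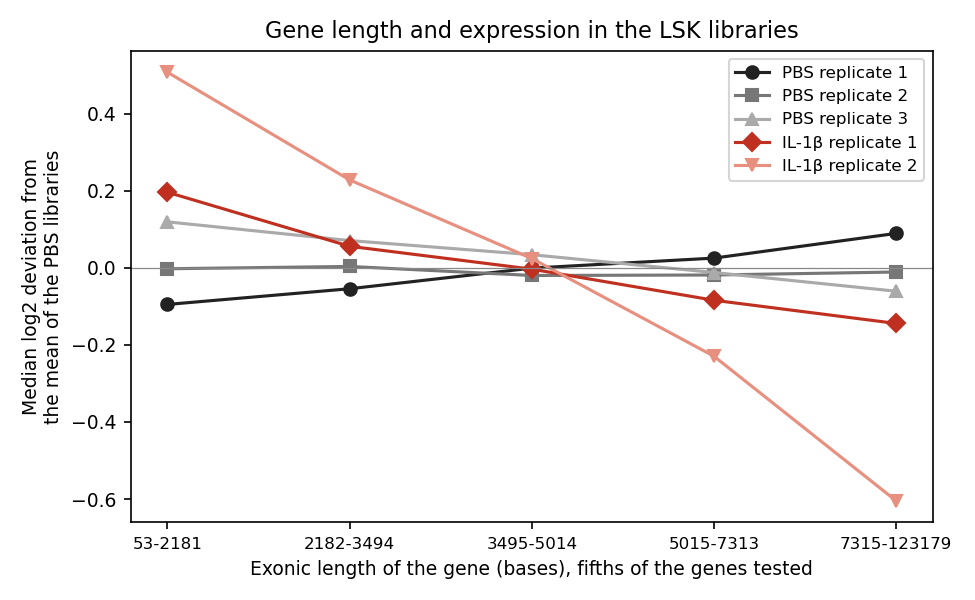
Median log2 deviation of each LSK library from the mean of the PBS libraries, for 5 classes of the 13132 tested genes ordered by exonic length in bases. IL-1β replicate 2 runs from 0.51 in the shortest to -0.60 in the longest class, and IL-1β replicate 1 from 0.20 to -0.14.

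Among the genes called higher with IL-1β were genes of granule proteins of neutrophil precursors and genes of mast cells and basophils. Among those called lower were stem cell and lymphoid progenitor genes, Irf8, MHC class II genes and interferon-stimulated genes. In each of these gene lists most members were not called. The 42 genes called higher (0.32% of those tested) had a median log2 fold change of 2.60, and the 41 called lower (0.312%) a median of -2.61. For every one of these 83 genes, no IL-1β library fell within the range of the PBS libraries. Across all genes tested, both IL-1β libraries lay above all PBS libraries for 2388 genes (18.2%) and below them for 2813 (21.4%), and the median log2 fold change was -0.06, -0.06 with genes at the floor set to their bound and -0.01 after length correction, and between -0.10 and -0.03 with any one library left out. Gene lists written for this tissue held 13 of the 42 and 15 of the 41. DESeq2 called 417 genes higher (3.18%) and 488 lower (3.72%), with all 83 among them, and limma-voom 19 higher and 2 lower, all from the same 83. Length correction kept 37 of the 42 and 39 of the 41. Without PBS replicate 2 there were 280 higher and 200 lower, with all 83 among them, and without PBS replicate 3 there were 74 and 87. Without IL-1β replicate 1 edgeR called 6 higher and 0 lower, and without IL-1β replicate 2 it called 3 and 0. In these fits the lone IL-1β library is assumed to vary like the PBS libraries. Because bulk RNA was measured, fewer cells of a type and less RNA per cell cannot be told apart.

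**Figure D2:**
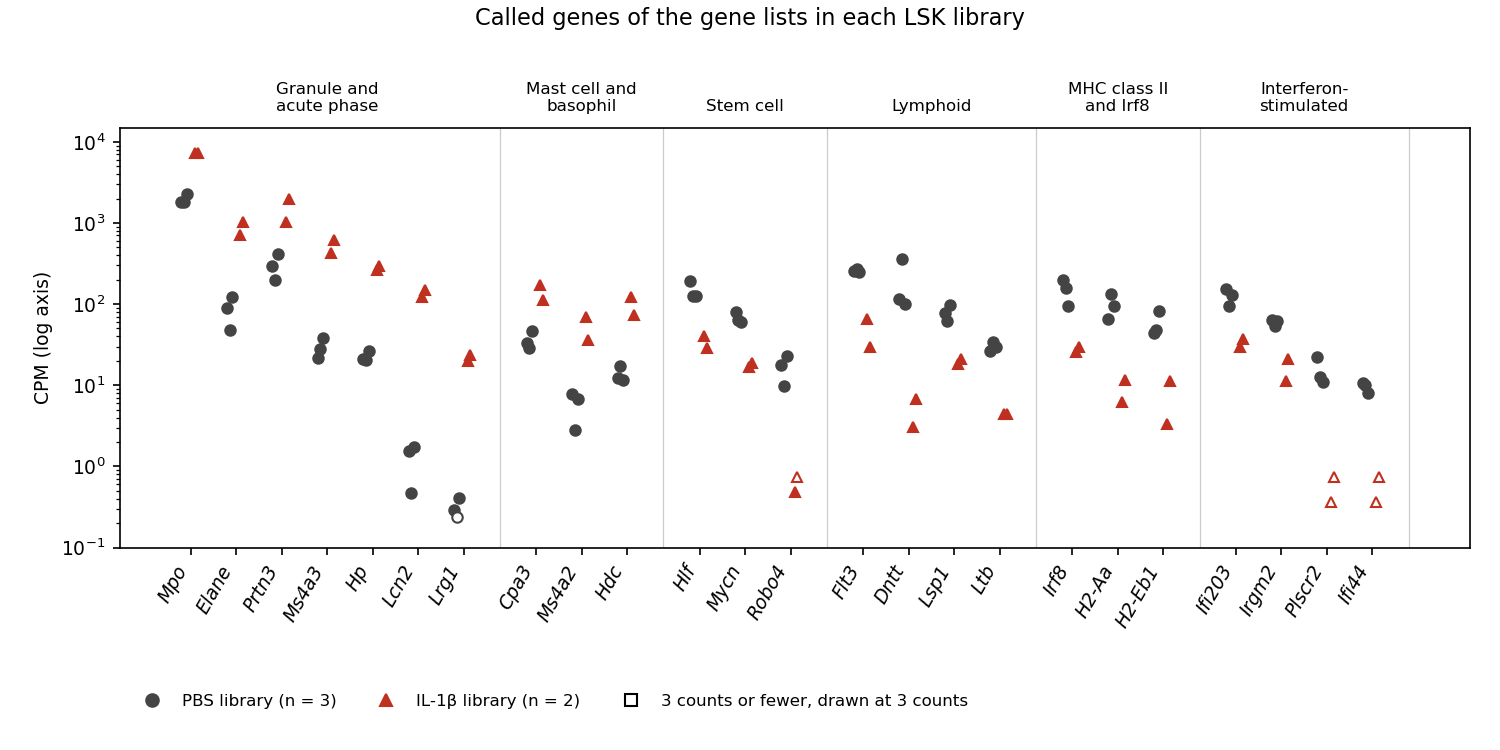
CPM, on a log axis, of called genes in the 3 PBS and 2 IL-1β LSK libraries. For each gene shown, both IL-1β libraries lie on one side of all PBS libraries, and open symbols mark values of 3 counts or fewer drawn at 3 counts.

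Genes of the primary granule list lay mostly higher with IL-1β, and 4 of them rose past the threshold. The list holds proteases and enzymes that promyelocytes pack into azurophil granules, and also the membrane protein Ms4a3 and the chaperone Calr. Of the 10 members, all tested, 4 were called higher and none lower, 8 were higher in each IL-1β library than in any PBS library, and the median log2 fold change was 1.87 (1.69 after length correction). Mpo, myeloperoxidase, was the most abundant per length, with a mean of 1983 TPM with PBS and 5690.4 TPM with IL-1β. It was at 1804, 1804 and 2297 CPM with PBS and 7379 and 7374 CPM with IL-1β. The treatments were far apart and the libraries within each were close (log2 fold change 1.91, standard error 0.28, edgeR's quasi-likelihood test, adjusted p = 0.0210). Elane, neutrophil elastase, was at 88.3, 47.5 and 123 CPM with PBS and 704 and 1015 CPM with IL-1β. Its lowest IL-1β library was several times its highest PBS library (3.32, 0.39, adjusted p = 0.0115). Prtn3, proteinase 3, lies next to Elane on chromosome 10 and was at 292, 196 and 409 CPM with PBS and 1030.1 and 1999 CPM with IL-1β (2.34, 0.38, adjusted p = 0.0288). Ms4a3 (ENSMUSG00000024681, chr19:11629496-11640851), a membrane protein that marks granulocyte-monocyte progenitors, was at 21.4, 28.04 and 37.8 CPM with PBS and 431 and 613 CPM with IL-1β. Only Lcn2 and Hp had a smaller p among all genes tested (4.16, 0.31, adjusted p = 0.000801). Ctsg, cathepsin G, at 193, 155 and 353 CPM with PBS and 738 and 1206 CPM with IL-1β, did not overlap between treatments but missed the threshold (adjusted p = 0.0516), as did the chaperone Calr (adjusted p = 0.0732). Ctsg passed in 10 of 14 alternatives, among them length correction (edgeR adjusted p = 0.0450) and thinned libraries (0.0430), and Calr in 4 of 14. With IL-1β replicate 1 or 2 left out, only Ms4a3 of the 4 genes stayed called by edgeR, and the adjusted p of the 4 ran from 0.0217 to 0.138 and from 0.0180 to 0.280. With limma-voom, Prtn3 was not called (adjusted p = 0.0555).

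Acute-phase genes and genes of later neutrophil stages were mostly higher as well, from low levels. The acute-phase list had 6 of 10 members tested, 3 called higher, 5 higher in each IL-1β library than in any PBS library, and a median log2 fold change of 3.99 (3.79 after length correction). The late granule and neutrophil list, which shares Lcn2 and Hp with it, had 13 of 16 tested, 2 called higher, 10 not overlapping in that direction, and a median of 3.45 (3.32 after length correction). Without IL-1β replicate 1 that median was 1.92, and without IL-1β replicate 2 3.92. Hp (ENSMUSG00000031722, chr8:109575128-109579172), haptoglobin, which binds free hemoglobin, was at 20.99, 20.4 and 26.4 CPM with PBS and 262 and 294 CPM with IL-1β. The values were tight within each treatment (log2 fold change 3.62, standard error 0.25, edgeR's quasi-likelihood test, adjusted p = 0.000497). Lcn2, an iron-sequestering protein of specific granules, was at 1.54, 0.470 and 1.75 CPM with PBS and 123 and 148 CPM with IL-1β. Lrg1, a secreted glycoprotein of the acute phase, was at 0.293, 0 and 0.409 CPM with PBS, close to 0, and 19.7 and 23.6 CPM with IL-1β, and was the only one of these 3 genes not called by limma-voom (adjusted p = 0.0620) or with an IL-1β library left out (0.138 without replicate 1 and 0.181 without replicate 2). Markers of mature neutrophils differed in level. Ly6g, the defining surface marker, had 0 counts in all 5 libraries. S100a8, a calcium-binding protein of mature neutrophils named after its values were seen, was at 0.878, 0.548 and 0.234 CPM with PBS and 13.02 and 4.71 CPM with IL-1β, higher in each IL-1β library and highest in replicate 1 without being called (edgeR adjusted p = 0.0720). The list summed to 119.9, 138 and 164 CPM in the PBS and 548 and 560.02 CPM in the IL-1β libraries. Lyz2, lysozyme, the most abundant member per length, was not higher with IL-1β, at 81.4, 110.3 and 128 CPM with PBS and 56.7 and 81.8 CPM with IL-1β (log2 fold change -0.62, adjusted p = 0.285). Its log2 fold change was -0.99 after length correction and -0.38 without IL-1β replicate 1. The part of mature neutrophils in these differences was not tested beyond these markers.

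The myeloid regulators did not move together. Of the 20 myeloid transcription factors and receptors, all tested, 11 lay higher in both IL-1β libraries and 5 lower, the median log2 fold change was 0.58 (0.58 after length correction, 0.38 without IL-1β replicate 2), and edgeR called 1, Irf8, which was lower. Cebpa, the factor that starts granulocyte commitment, was at 144, 197 and 142 CPM with PBS and 330.1 and 496 CPM with IL-1β. The groups did not overlap, but the gene missed the threshold (log2 fold change 1.36, standard error 0.27, edgeR's quasi-likelihood test, adjusted p = 0.0636). Spi1, encoding PU.1, was at 134, 190.1 and 146 CPM with PBS and 207 and 256 CPM with IL-1β (0.56, 0.25, adjusted p = 0.272). Myb, a factor of progenitor proliferation, was at 661, 528 and 548 CPM with PBS and 669 and 529 CPM with IL-1β, and the groups overlapped (0.05, 0.25). Its log2 fold change was 0.36 after length correction and ran from -0.13 to 0.23 with single libraries left out.

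Mast cell and basophil genes lay higher with IL-1β. All 12 members of the mast cell, basophil and eosinophil list were tested, 3 were called higher and none lower, and 11 were higher in each IL-1β library than in any PBS library, with a median log2 fold change of 2.02 (1.71 after length correction). Hdc, which makes histamine, was at 12.3, 17.2 and 11.7 CPM with PBS and 121 and 72.4 CPM with IL-1β (quasi-likelihood test of edgeR, adjusted p = 0.00874, log2 fold change 2.82, standard error 0.31). Ms4a2, the beta chain of the IgE receptor, was at 7.83, 2.82 and 6.67 CPM with PBS and 69.5 and 35.9 CPM with IL-1β (3.19, 0.47, adjusted p = 0.0210). Cpa3, a mast cell carboxypeptidase, was at 32.98, 28.7 and 47.1 CPM with PBS and 173 and 111 CPM with IL-1β (1.97, 0.30, adjusted p = 0.0255). IL-1β replicate 1 was the higher of the 2 for these 3 genes, and neither IL-1β library overlapped with PBS. The basophil proteases Prss34, at 33.5, 28.98 and 36.5 CPM with PBS and 62.7 and 71.6 CPM with IL-1β, and Mcpt8, at 22.2, 17.9 and 27.6 and 45.4 and 47.4 CPM, did not overlap between treatments either but did not pass the adjustment (adjusted p = 0.0962 and 0.127). The list summed to 135, 119.9 and 155 CPM in the PBS and 597 and 435 CPM in the IL-1β libraries, and per length Cpa3 was its most abundant gene, with a mean of 149.96 TPM over the 5 libraries. Cpa3 missed the threshold after length correction (adjusted p = 0.0515) and with limma-voom (0.0550), and without either IL-1β library none of the 3 genes was called by edgeR (adjusted p from 0.138 to 0.142 without replicate 1 and from 0.0566 to 0.142 without replicate 2). Lineage depletion is meant to remove mature blood cells, and the share of these types among the sorted cells was not tested.

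The list of sort markers and hematopoietic stem cell identity lay mostly lower with IL-1β. Besides stem cell genes it holds the gate markers Kit and Ly6a, the progenitor markers Cd34 and Cd48, and Flt3 of the lymphoid list. Egr1 and Nr4a1, which the immediate early list shares, are members too, so its counts and median do not describe stem cell genes alone. Of 30 genes, 29 were tested, 5 were called lower and none higher. Of those tested, 21 were lower in each IL-1β library than in any PBS library and 2 higher. The median log2 fold change was -1.01 (-1.05 after length correction). Hlf (ENSMUSG00000003949, chr11:90336536-90390895), a transcription factor of stem cells, was at 191, 125 and 126 CPM with PBS and 40.9 and 28.8 CPM with IL-1β. Both IL-1β values lay well below the lowest PBS value (log2 fold change -2.08, standard error 0.31, edgeR's quasi-likelihood test, adjusted p = 0.0225). Mycn, the Myc family member found in immature progenitors, was at 79.2, 63.99 and 59.6 CPM with PBS and 16.5 and 18.6 CPM with IL-1β (-1.95, 0.28, adjusted p = 0.0207). Robo4, a guidance receptor by which stem cells lodge in the marrow, was at 17.6, 9.79 and 22.9 CPM with PBS and 0.487 and 0.496 CPM with IL-1β, from 4 and 2 counts (-5.06, 0.67, adjusted p = 0.0161). The IL-1β libraries lay below every PBS library for each of these genes. The members of highest mean level per length, besides Cd34, lay higher or overlapped. Itga2b, an integrin chain of platelet-biased stem cells and megakaryocytes, was at 274, 317 and 347 CPM with PBS and 599 and 456 CPM with IL-1β (0.75, 0.25, adjusted p = 0.170), and Cd48, a marker of cells past the stem cell stage, at 66.5, 36.1 and 84.2 and 71.2 and 82.8 CPM, overlapping between treatments. With IL-1β replicate 1 left out, edgeR called none of Hlf, Mycn, Robo4 and Flt3, which the lymphoid list shares (adjusted p 0.0577 to 0.138), nor with IL-1β replicate 2 left out (0.152 to 0.280), and of these limma-voom called Flt3 alone. Before adjustment 17 of the members were lower and 2 higher at p under 0.05, and DESeq2 called 11 lower and 2 higher.

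Genes of lymphoid priming lay below PBS in both IL-1β libraries for 13 of 15 tested (86.7%). The list held 20 genes, 3 were called lower and none higher, and the median log2 fold change was -1.79 (-1.48 after length correction). Dntt (ENSMUSG00000025014, chr19:41029275-41059525), which adds bases at antigen receptor junctions and marks lymphoid-primed progenitors, was at 114, 356 and 102 CPM with PBS and 3.04 and 6.69 CPM with IL-1β. PBS replicate 2 was the highest, and the lowest PBS library was still far above the IL-1β libraries (log2 fold change -5.36, standard error 0.71, edgeR's quasi-likelihood test, adjusted p = 0.0161). Flt3, the receptor tyrosine kinase of lymphoid-primed multipotent progenitors, was at 253, 272 and 246 CPM with PBS and 65.6 and 29.5 CPM with IL-1β (-2.42, 0.35, adjusted p = 0.0207). Lsp1, a leukocyte protein that binds actin, was at 78.03, 61.6 and 98.04 CPM with PBS and 18.3 and 20.8 CPM with IL-1β (-2.02, 0.30, adjusted p = 0.0217). Among called genes outside the list, Ltb, lymphotoxin beta, was at 26.8, 34.1 and 29.8 CPM with PBS and 4.38 and 4.46 CPM with IL-1β (-2.77, 0.37, adjusted p = 0.0161). Gimap6, a GTPase of lymphocyte survival, was at 66.7, 66.03 and 103 CPM with PBS and 15.7 and 11.7 CPM with IL-1β (-2.51, 0.33, adjusted p = 0.0161). None of these 5 genes overlapped between treatments. Ikzf1, encoding Ikaros, and Cd27, a receptor of the TNF family, had log2 fold changes of -0.53 and -0.73 without passing the test (adjusted p = 0.280 and 0.219). Without IL-1β replicate 1 the adjusted p of the 5 genes ran from 0.0577 to 0.138, and without IL-1β replicate 2 from 0.152 to 0.217, so none was called by edgeR. With all libraries limma-voom called only Flt3 of these 5 (adjusted p 0.0327 to 0.129).

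Several defining markers of mature lymphoid cells had few or no counts in both groups. Of 10 B and plasma cell genes 5 were tested, edgeR called none, 3 were lower in both IL-1β libraries, the median log2 fold change was -1.09 (-1.11 after length correction, -0.60 without IL-1β replicate 1), and the list summed to 287, 168 and 291 CPM in the PBS and 92.5 and 144 CPM in the IL-1β libraries. Cd79a had 6, 0 and 5 counts with PBS and 0 and 0 with IL-1β, and Pax5 had 0 in every library. Igkc, the kappa light chain and the most abundant per length, was at 55.7, 35.8 and 69.1 CPM with PBS and 25.8 and 52.1 CPM with IL-1β, and Ighm, the heavy chain also transcribed in progenitors, at 192, 101 and 168 and 48.9 and 56.5 CPM (log2 fold change -1.54, edgeR adjusted p = 0.0686). Cd79b, a signalling chain of the B cell receptor, had a log2 fold change of -0.02 (-0.36 after length correction, -0.38 to 0.41 with single libraries left out). For T and NK cells, Cd3d and Cd3g had 0 counts in every library, Cd3e had 0, 3 and 0 with PBS, 0 and 0 with IL-1β, and 3 of 11 genes were tested. Of those, Nkg7, a cytotoxic granule protein that progenitors of granulocytes also carry, was at 92.8, 103 and 107 CPM with PBS and 199 and 295 CPM with IL-1β (log2 fold change 1.29, edgeR adjusted p = 0.0582). Tcf7, a T cell factor, had a log2 fold change of -1.12 (-2.03 without IL-1β replicate 1, -0.61 without IL-1β replicate 2 and -0.57 without PBS replicate 1). Klrb1c, an NK receptor, had 0 counts in both IL-1β libraries and 10, 1 and 14 in the PBS libraries. The median of those 3 genes was -1.12 (-1.21 after length correction), or 0.03 with Klrb1c at its bound. It was -2.03 and -0.61 without IL-1β replicate 1 and 2. Klrb1c had no value with a PBS library left out or with thinned libraries. The median of Nkg7 and Tcf7 alone was 0.34, 0.07 and -0.05 without PBS replicate 1, 2 and 3, and 0.09 with thinned libraries. The 3 genes summed with the rest of the list to 103, 108 and 111 CPM in the PBS and 202 and 296 CPM in the IL-1β libraries, and edgeR called none of them (1 at p under 0.05 before adjustment, 1 by DESeq2 and 0 by limma-voom). Before adjustment 2 of the B cell genes had p under 0.05, DESeq2 called 1 and limma-voom 0.

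Irf8 and 2 genes of MHC class II fell. Irf8, the transcription factor that directs progenitors to monocytes and dendritic cells, was at 199, 159.6 and 95.9 CPM with PBS and 25.3 and 29.3 CPM with IL-1β. The PBS libraries spread more widely than the IL-1β libraries, with no overlap (log2 fold change -2.48, standard error 0.35, edgeR's quasi-likelihood test, adjusted p = 0.0207). In the macrophage and dendritic cell list 11 of 15 genes were tested, 2 were called lower and none higher, 6 were lower in both IL-1β libraries and 1 higher, and the median log2 fold change was -0.77 (-1.13 after length correction). This median was -0.15 without IL-1β replicate 1, -1.83 without IL-1β replicate 2, -1.36 without PBS replicate 1 and -1.38 without PBS replicate 2, and with all 5 libraries thinned to the smallest it was -2.03. The called genes were H2-Aa (ENSMUSG00000036594) and H2-Eb1, neighbours on chromosome 17 that encode an alpha and a beta chain of MHC class II molecules. H2-Aa was at 65.5, 132 and 94.2 CPM with PBS and 6.21 and 11.7 CPM with IL-1β (-3.48, 0.43, adjusted p = 0.0121). H2-Eb1 was at 43.95, 48.5 and 81.9 CPM with PBS and 3.29 and 11.4 CPM with IL-1β (-3.06, 0.54, adjusted p = 0.0448). Both lay several times below the lowest PBS library. H2-Ab1, their neighbour, was at 83.2, 97.7 and 162 CPM with PBS and 31.5 and 61.98 CPM with IL-1β (adjusted p = 0.142), and Cd74, the invariant chain and per length the most abundant of the list, was at 101, 149 and 93.5 and 12.5 and 33.2 CPM (adjusted p = 0.0522). Cd74 passed in 8 of 14 alternatives, among them length correction (edgeR adjusted p = 0.0242), and H2-Ab1 in 3 of 14. Of the defining macrophage genes, Adgre1 had 19, 5 and 14 counts with PBS and 3 and 8 with IL-1β, and C1qa had 4, 7 and 14 and 4 and 2. The list summed to 319, 447 and 455 CPM in the PBS and 66.8 and 144 CPM in the IL-1β libraries. Without IL-1β replicate 1 or 2 none of the 3 called genes passed by edgeR (adjusted p 0.138 to 0.142 and 0.142 to 0.227), and none by limma-voom (0.0588 to 0.111).

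Promoters of MHC class II genes are known for the Y box, a site with the letters CTGATTGG that binds NF-Y, and the promoter windows of both called genes are shown because each holds it. RefSeq promoter windows of GRCm38.p6, from 250 bases before to 50 after the transcription start, were searched on both strands. The letters occurred in 4.1% of 32851 windows, and 6.64% of 9729 tested genes held them in any of their windows. Of 10 members of the macrophage and dendritic cell list matched to a window 2 held them. Windows are printed along the strand of the gene with the matched letters in capitals, and a match describes the sequence and does not show binding.
H2-Aa, GRCm38.p6 minus strand, chr17:34287847-34287894: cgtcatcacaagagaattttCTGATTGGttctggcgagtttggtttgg
H2-Eb1, GRCm38.p6 plus strand, chr17:34305785-34305832: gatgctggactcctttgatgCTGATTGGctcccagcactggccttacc
The match begins 51 bases before the start in H2-Aa and 62 bases before it in H2-Eb1.

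Interferon-stimulated genes were mostly lower with IL-1β. They encode antiviral effectors that type I and type II interferons induce through STAT factors, and stem cells are known to hold a basal level of them. Of 56 genes, 52 were tested, 4 were called lower and none higher, 39 were lower in each IL-1β library than in any PBS library (75%) and 1 higher, and the median log2 fold change was -1.35 (-1.28 with genes at the floor set to their bound, -1.34 after length correction). Ifi203, a nucleic acid sensor of the p200 family, was at 152, 95.3 and 129 CPM with PBS and 29.7 and 36.9 CPM with IL-1β (quasi-likelihood test of edgeR, adjusted p = 0.0255, log2 fold change -1.92, standard error 0.30). Irgm2, an immunity-related GTPase, was at 62.9, 53.3 and 61.1 CPM with PBS and 11.3 and 21.1 CPM with IL-1β (-1.89, 0.34, adjusted p = 0.0448). It overlaps Igtp on the same strand, so read pairs shared by both were not counted. Ifi44 and Plscr2, a phospholipid scramblase, had 147, 130 and 137 and 304, 159 and 186 counts in the PBS libraries and 0 and 0 and 0 and 2 in the IL-1β libraries, and none of the 4 called genes overlapped between treatments. Of the most abundant members per length, Bst2, tetherin, was at 47.8, 57.6 and 53.9 CPM with PBS and 60.2 and 94.2 CPM with IL-1β (log2 fold change 0.54), Ifi27 at 51.6, 96.1 and 47.4 and 18.3 and 56.03 CPM (-0.83), and the GTPase Ifi47 at 119, 86.00 and 151 and 93.6 and 117 CPM (-0.17). These 3 were not called. The log2 fold change of Bst2 was 0.11 after length correction, 0.82 without IL-1β replicate 1 and 0.21 without IL-1β replicate 2. That of Ifi27 was -1.25 after length correction, -0.22 without IL-1β replicate 1, -1.81 without IL-1β replicate 2 and -0.42 without PBS replicate 2, and that of Ifi47 -0.33 after length correction and -0.34 to 0.04 with single libraries left out. PBS replicate 2 was the highest library for Isg15, a ubiquitin-like modifier named after its values were seen, at 4.46, 17.4 and 5.97 CPM with PBS and 2.43 and 7.93 CPM with IL-1β, which overlapped between treatments, and without PBS replicate 2 the list median was -1.27. Before adjustment 33 members were lower at p under 0.05, DESeq2 called 16 lower and limma-voom 0. Irgm2 lost its call when PBS replicate 1 was left out (adjusted p = 0.0690), and with Nlrc5 none of the 5 was called by edgeR without IL-1β replicate 1 (0.138 to 0.143) or 2 (0.142 to 0.227).

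Interferon-stimulated response elements hold the letters TTCNNTTTC or their reverse complement, and windows of called members and of the familiar targets Isg15 and Ifit3, named after their values were seen, are shown because they hold them. The letters, searched on both strands, occurred in 8.56% of the 32851 RefSeq windows, and 8.51% of 9729 tested genes held them in any of their windows. Of the 39 list members matched to a window 26 held them (66.7%), among them all 3 matched members that were called lower. They occurred in 17 of 24 matched members lower in both IL-1β libraries and in 6 of the 12 other tested members matched.
Ifi203, GRCm38.p6 minus strand, chr1:173942499-173942547: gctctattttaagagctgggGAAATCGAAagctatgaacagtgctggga
Irgm2, GRCm38.p6 plus strand, chr11:58214893-58214941: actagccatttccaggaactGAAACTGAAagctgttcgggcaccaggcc
Ifi44, GRCm38.p6 minus strand, chr3:151749905-151749933: aaacagaggaaaagtttctcTTCATTTTC
Isg15, GRCm38.p6 minus strand, chr4:156200856-156200916: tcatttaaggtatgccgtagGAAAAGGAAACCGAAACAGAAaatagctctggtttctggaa
Ifit3, GRCm38.p6 plus strand, chr19:34583354-34583455: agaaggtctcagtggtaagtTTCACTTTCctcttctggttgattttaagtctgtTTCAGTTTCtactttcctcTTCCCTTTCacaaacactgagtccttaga
In Ifi44 the match spans the start, and nothing past it is printed. Isg15 and Ifit3 hold 3 matches each and the called genes 1 each. Ifit3 was at 0.804, 4.62 and 0.877 CPM with PBS, with PBS replicate 2 the highest. With IL-1β it had fewer than 3 counts in each library (0 and 0.248 CPM), and it was not called (edgeR adjusted p = 0.238).

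MHC class I genes, also under interferon control, had one called member. Nlrc5, the transactivator of MHC class I genes, was at 127, 137 and 117 CPM with PBS and 42.1 and 37.9 CPM with IL-1β, and the groups did not overlap (log2 fold change -1.66, standard error 0.25, edgeR's quasi-likelihood test, adjusted p = 0.0217). Without IL-1β replicate 1 its adjusted p was 0.138, and without replicate 2 0.227, and limma-voom gave 0.0588. All 17 members of the list were tested, 6 were lower in both IL-1β libraries and 1 higher, and the median log2 fold change was -0.20 (-0.32 after length correction), or -0.03 without IL-1β replicate 1 and -0.52 without IL-1β replicate 2. The most abundant per length were B2m, the common light chain, with a log2 fold change of -0.96, and the heavy chains H2-K1 (-0.26) and H2-D1 (-0.07), all 3 overlapping between treatments. H2-K1 had -0.03 without IL-1β replicate 1, -0.52 without IL-1β replicate 2 and -0.17 without PBS replicate 3, and H2-D1 -0.23 after length correction and -0.38 to 0.20 with single libraries left out.

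The receptor and signalling genes of IL-1 itself were not called by edgeR. Il1r1 was at 65.7, 48.3 and 58.6 CPM with PBS and 33.1 and 16.6 CPM with IL-1β, and both IL-1β libraries lay below the PBS libraries (log2 fold change -1.20, standard error 0.34, adjusted p = 0.131, and 0.0116 to 0.631 over the alternatives). It passed the threshold with DESeq2 (0.0323), in a joint fit with LK cells (0.0371), with no filter (0.0116) and with the replicate number as a block (0.0272). The log2 fold change of Il1r1 was -1.80 without IL-1β replicate 1 and -0.78 without IL-1β replicate 2. Il1rap, its partner, was at 18.1, 6.81 and 16.6 CPM with PBS and 17.2 and 14.6 CPM with IL-1β, and the groups overlapped (log2 fold change 0.20, standard error 0.46, edgeR's quasi-likelihood test, adjusted p = 0.842), with 0.63 after length correction and -0.10 to 0.46 with single libraries left out. Of 23 genes of the IL-1 receptor family and its signalling, 19 were tested, 6 were lower in both IL-1β libraries and 2 higher, and the median log2 fold change was -0.21. That median was -0.04 after length correction, -0.39 without IL-1β replicate 1, -0.03 without IL-1β replicate 2, and -0.12 and -0.07 without PBS replicate 2 and 3. Myd88, the adaptor of the receptor, was at 55.00, 56.9 and 56.7 CPM with PBS and 71.9 and 72.1 CPM with IL-1β, Irak1 had a log2 fold change of -0.07 and Tab2, a partner of the kinase Tak1, of -0.21. With single libraries left out these ran from -0.25 to 0.10 and from -0.39 to -0.03, and after length correction they were -0.00467 and -0.04. EdgeR called none, 1 member was higher and 4 lower at p under 0.05 before adjustment, DESeq2 called 1 and 4 and limma-voom 0. Of 21 NF-κB subunits and feedback targets 19 were tested, 8 were lower in both IL-1β libraries and 3 higher, with a median of -0.66 (-0.71 after length correction). Rela, the transactivating subunit, was at 128, 91.95 and 104 CPM with PBS and 55.4 and 86.8 CPM with IL-1β, and Nfkbia, the inhibitor that NF-κB induces, at 57.6, 46.9 and 54.2 and 36.02 and 29.5 CPM. Both lay below PBS in both IL-1β libraries without passing the adjustment (adjusted p = 0.287 and 0.215), and Nfkb1 overlapped (-0.20, 0.29 after length correction and -0.10 without PBS replicate 1). EdgeR and limma-voom called none of this list, DESeq2 1, and 2 were higher and 6 lower at p under 0.05 before adjustment.

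Genes of the JAK2-STAT pathway, which the mutant kinase drives, had one called member, Id1, an inhibitor of differentiation factors. It was at 1.76, 0.235 and 1.11 CPM with PBS and 20.3 and 30.99 CPM with IL-1β (quasi-likelihood test of edgeR, adjusted p = 0.0207, log2 fold change 4.60, standard error 0.67), and was not called without IL-1β replicate 1 (0.138) or 2 (0.275), or by limma-voom (0.0588). All 17 members were tested, 2 were higher and 7 lower in both IL-1β libraries, and the median log2 fold change was -0.30 (-0.12 after length correction, -0.20 without IL-1β replicate 2). The STAT5 target Pim1 was at 251, 264 and 265 CPM with PBS and 263 and 277 CPM with IL-1β, the phosphatase Ptpn6 at 211, 184 and 206 and 165 and 133 CPM, and the cyclin Ccnd2 at 404, 429.8 and 319.7 and 449.99 and 247 CPM. Immediate early genes, which respond within minutes to growth signals and to cell handling, varied among the PBS libraries. Of 20 genes 17 were tested, edgeR called none, 8 were lower in both IL-1β libraries, and the median was -1.39 (-1.34 after length correction), or -0.94 without PBS replicate 2. Fos, named after its values were seen, was at 4.02, 116 and 27.02 CPM with PBS and 6.33 and 3.72 CPM with IL-1β, with PBS replicate 2 far above the others. Of the most abundant per length, Ier2 was at 55.2, 168 and 106 CPM with PBS and 69.1 and 103 CPM with IL-1β, and Jund (-0.62) and Junb (0.28) overlapped as well. After length correction they were -0.97 and -0.00206, and with single libraries left out they ran from -1.44 to -0.08 and from 0.01 to 0.72. Before adjustment 1 member was higher and 8 lower at p under 0.05, DESeq2 called 1 and 3 and limma-voom 0.

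Megakaryocyte and erythroid genes were mostly not separated by treatment. Of 20 megakaryocyte and platelet genes 17 were tested, 6 were lower in both IL-1β libraries and 1 higher, and the median log2 fold change was -0.86 (-0.82 after length correction, -0.52 without IL-1β replicate 2). The platelet factor Pf4, at 43.9, 104 and 60.1 CPM with PBS and 48.8 and 50.6 CPM with IL-1β, and the transcription factor Nfe2, at 222, 328 and 260.2 and 217 and 291 CPM, overlapped between treatments. The list summed to 1449.6, 1355 and 1487 CPM in the PBS and 1348 and 1194 CPM in the IL-1β libraries. Of 17 erythroid genes 15 were tested, edgeR called none, 4 were lower in both IL-1β libraries (26.7%, near the 21.4% of all genes) and 1 higher, and the median was -0.34 (-0.51 after length correction). It was 0.21 without IL-1β replicate 1, -1.40 without IL-1β replicate 2, and -0.52 and -0.18 without PBS replicate 2 and 3. Car2, a carbonic anhydrase, was at 452, 487 and 455 CPM with PBS and 149 and 285 CPM with IL-1β, the related Car1 at 154, 98.4 and 153 and 50.6 and 222 CPM, and the transferrin receptor Tfrc at 303, 218 and 222 and 399 and 315 CPM. The IL-1β libraries were far apart for Car1, and the list summed to 1213, 1066 and 1151 CPM in the PBS and 761 and 1202 CPM in the IL-1β libraries. Before adjustment 3 erythroid genes were lower at p under 0.05, DESeq2 called 2 and limma-voom 0. Of 14 stroma and endothelium genes 6 were tested, with Lepr at 0 counts in every library and Col1a1 between 1 and 7, and the list summed to 201, 153 and 196 CPM in the PBS and 128 and 104 CPM in the IL-1β libraries. Pecam1, an adhesion molecule that stem cells share, was the most abundant per length, with a log2 fold change of -0.70, Pdgfrb had one of -0.70 and Sparc, from few counts, one of 2.13 (1.24 without IL-1β replicate 1), and the list median was -0.70 (-0.53 after length correction). EdgeR, DESeq2 and limma-voom called none of them, and 2 were lower at p under 0.05 before adjustment.

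Lists of ribosome biogenesis, tRNA synthetase, chaperonin and proteasome genes had a larger share of members above PBS than the 18.2% of all genes, with medians well below those of the granule genes. Of 40 ribosome biogenesis genes, all tested, 29 were higher in each IL-1β library than in any PBS library and none lower, and the median log2 fold change was 0.52 (0.54 after length correction). Npm1, a nucleolar chaperone, was at 1236, 1748 and 1616 CPM with PBS and 2537 and 3369 CPM with IL-1β, nucleolin (Ncl) at 1746, 3240.1 and 1996 and 4881 and 3666 CPM, and fibrillarin (Fbl) at 301, 739 and 389.8 and 836 and 819 CPM. Each lay above PBS in both IL-1β libraries, and PBS replicate 2 was the highest of the PBS libraries for each. EdgeR called none of the 40, 16 had p under 0.05 before adjustment, DESeq2 called 7 and limma-voom 0. The 21 aminoacyl-tRNA synthetase genes had 12 higher and none lower, a median of 0.55 (0.49 after length correction), and log2 fold changes of 0.78 for Gars, 0.89 for Nars and -0.01 for Vars (0.13 after length correction, -0.12 to 0.24 with single libraries left out). The 8 subunits of the chaperonin CCT had 7 higher and a median of 0.60 (0.73 after length correction), with 0.93 for Cct8, 0.62 for Cct2 and 0.57 for Cct5. Of 51 translation initiation factors tested 22 were higher and 4 lower, with a median of 0.35 (0.35 after length correction) and with 0.76 for Eif5a (0.49 without IL-1β replicate 2), 0.64 for Eif4a1 and 0.64 for Eif3b. Of these 3 lists edgeR and limma-voom called no member, DESeq2 called 3, 1 and 1, and 9, 5 and 9 had p under 0.05 before adjustment. Among 38 proteasome genes tested 21 were higher and none lower (median 0.59, 0.52 after length correction), with 0.97 for Psmb5, 0.80 for Psmb4 and 0.78 for Psma5. These were 0.52 after length correction and 1.61 without PBS replicate 2 for Psmb5, 1.21 without PBS replicate 2 for Psmb4, and 0.40 after length correction and 0.43 without IL-1β replicate 2 for Psma5. The called one was Psma8, a subunit of the testis proteasome, with 1, 0 and 0 counts with PBS and 118 and 96 with IL-1β, and it was not called without IL-1β replicate 1 (0.0703) or 2 (0.142), or by limma-voom (0.0555).

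The length correction lowered the medians of ribosomal protein and nuclear oxidative phosphorylation genes. Cytosolic ribosomal proteins (80 tested) had a median log2 fold change of 0.34, 0.10 after length correction, 0.05 without IL-1β replicate 2, 0.57 without IL-1β replicate 1 and 0.21 without PBS replicate 1. 9 of them were higher in both IL-1β libraries (11.2%, below the 18.2% of all genes), with 0.64 for Rplp1, 0.65 for Rps2 and 0.44 for Rps15. Rplp1 had 0.20 after length correction and 0.34 without IL-1β replicate 2, Rps2 0.36 after length correction and 0.35 without IL-1β replicate 2, and Rps15 0.02 after length correction and 0.21 without PBS replicate 1. Mitochondrial ribosomal proteins (77 tested) had 31 higher and a median of 0.56, 0.39 after length correction and 0.28 without IL-1β replicate 2, with 1.15 for Mrpl12, 0.87 for Mrpl18 and 0.76 for Mrpl34. Mrpl12 had 0.70 without IL-1β replicate 2, Mrpl18 0.51 after length correction and 0.57 without IL-1β replicate 2, and Mrpl34 0.29 after length correction, 0.43 without PBS replicate 1 and 1.63 without PBS replicate 2. Nuclear genes of oxidative phosphorylation (82 tested) had 34 higher and a median of 0.73, 0.49 after length correction and 0.48 without IL-1β replicate 2. Cox6a1, a subunit of complex IV, was at 139, 325 and 143 CPM with PBS and 435 and 569 CPM with IL-1β, and the ATP synthase subunits Atp5a1 and Atp5b had log2 fold changes of 0.62 and 0.61. None of these lists had a member lower in both IL-1β libraries or called by edgeR or limma-voom, DESeq2 called 1, 8 and 14 higher, and 3, 22 and 31 had p under 0.05 before adjustment. The mitochondrially encoded genes went the other way and varied widely among the PBS libraries. mt-Co1 was at 1219.6, 403 and 2374 CPM with PBS and 317 and 349 CPM with IL-1β, mt-Cytb at 412, 55.1 and 898 and 56.5 and 65.4 CPM and mt-Nd1 at 296, 47.9 and 561 and 63.4 and 105 CPM. The median of 8 tested was -2.09 (-2.02 with floor genes at their bound, -2.33 after length correction), edgeR and limma-voom called none, DESeq2 called 4 lower, and 5 had p under 0.05 before adjustment.

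Secretory and glycolytic genes lay mostly higher. All 20 unfolded protein response genes were tested, 15 were higher in both IL-1β libraries and none lower, and the median log2 fold change was 0.89 (0.90 after length correction). Sdf2l1, an endoplasmic reticulum co-chaperone, was at 71.5, 58.9 and 62.8 CPM with PBS and 185 and 335 CPM with IL-1β and was called (log2 fold change 2.01, standard error 0.29, edgeR's quasi-likelihood test, adjusted p = 0.0207), but not without IL-1β replicate 1 (0.0577) or 2 (0.181). Calr, calreticulin, which the primary granule list shares, was at 1084, 1068 and 1315 CPM with PBS and 2348 and 3401 CPM with IL-1β, the chaperone Hspa5 at 852, 1405 and 492 and 1594 and 2017 CPM, and the disulfide isomerase Pdia3 at 514, 930.3 and 541 and 1437 and 1282 CPM. All 3 lay above PBS in both IL-1β libraries. Of 19 glycolysis genes, all tested, 12 were higher and 1 lower in both IL-1β libraries, with a median of 0.69 (0.68 after length correction). Ldha, lactate dehydrogenase, was at 724, 783 and 844 CPM with PBS and 1276 and 1924 CPM with IL-1β, and Pgk1 (0.87) and Pkm (0.69) lay higher too. EdgeR and limma-voom called none, 11 had p under 0.05 before adjustment, and DESeq2 called 7. Of 19 tested genes of the ATF4 amino acid response 10 were higher and 1 lower (median 0.39, 0.41 after length correction, 0.63 without IL-1β replicate 1), with 0.82 for Phgdh, 0.56 for Shmt2 and 0.58 for Atf4. Phgdh had 1.35 without PBS replicate 2, and Atf4 0.31 without IL-1β replicate 2. Of 10 tested polyamine genes 6 were higher and 1 lower (median 0.42, 0.48 after length correction), with 1.33 for Odc1, 0.87 for Srm and 0.22 for Oaz1. Srm had 0.52 after length correction and 0.35 without IL-1β replicate 2, and Oaz1 0.06 after length correction and -0.08 to 0.48 with single libraries left out. Of 23 cholesterol genes 5 were higher (21.7%, near the 18.2% of all genes) and 2 lower. Their median was 0.19 (0.31 after length correction, 0.11 without IL-1β replicate 2), with -0.53 for Srebf2 (-0.29 after length correction) and 0.65 for Ebp. For these 3 lists edgeR and limma-voom called none, DESeq2 called 4, 1 and 1 higher and 0, 1 and 0 lower, and 5, 2 and 2 were higher and 1, 1 and 1 lower at p under 0.05 before adjustment.

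Cell cycle genes stayed close to the median of all genes. DNA replication genes (40 tested) had a median log2 fold change of 0.11, with 8 higher and 2 lower in both IL-1β libraries, and mitosis genes (30 tested) a median of 0.08, with 8 and 2. After length correction these medians were 0.18 and 0.09. Without PBS replicate 2 they were 0.18 and 0.00397, and the mitosis median was 0.21 without PBS replicate 1, 0.11 without PBS replicate 3, 0.12 with thinned libraries and 0.18 without IL-1β replicate 1. The sliding clamp Pcna was at 433, 351 and 529 CPM with PBS and 331 and 478 CPM with IL-1β, and the helicase subunits Mcm6 and Mcm3 had log2 fold changes of 0.07 (0.13 after length correction) and 0.33. Among mitosis genes Cdc20 had 0.65, Top2a -0.21 and Ccnb2 0.27. Cdc20 had 0.37 after length correction and 0.43 without IL-1β replicate 2, Ccnb2 -0.04 after length correction, and Top2a 0.09 after length correction and -0.57 to 0.10 with single libraries left out. CDK inhibitors and D cyclins (13 tested) had a median of -0.27 (-0.15 after length correction, -0.45 without IL-1β replicate 1, -0.11 without IL-1β replicate 2), with 1 higher and 4 lower, and with 0.65 for Cdk4 and -0.26 for Cdk6. Cdk4 had 1.04 without IL-1β replicate 1 and 0.14 without IL-1β replicate 2, and Cdk6 0.20 after length correction, -0.85 without IL-1β replicate 1 and 0.18 without IL-1β replicate 2. EdgeR, DESeq2 and limma-voom called no member of these 3 lists, and 3, 3 and 0 were higher and 1, 1 and 2 lower at p under 0.05 before adjustment. In the Myc network 11 genes were tested, Mycn was the called one, and the median was -0.24 (-0.35 after length correction, -0.44 without PBS replicate 2). Myc itself was at 407, 195 and 399 CPM with PBS and 264 and 308 CPM with IL-1β, with overlap, and its partner Max at 115, 113 and 118 and 130.2 and 174 CPM. The BCL2 family (11 tested) had a median of -0.06 (-0.12 after length correction), between -0.17 without IL-1β replicate 2 and 0.07 without IL-1β replicate 1, 0.08 with thinned libraries, with 2 higher and 3 lower, and with 0.07 for the survival factor Mcl1 and 0.82 and 0.53 for the pore formers Bax and Bak1. Bax had 0.50 after length correction and 1.59 without PBS replicate 2, and Mcl1 0.03 to 0.13 with single libraries left out. EdgeR and limma-voom called none, DESeq2 1 higher and 1 lower, and 2 and 2 had p under 0.05 before adjustment. The 25 genes of a heat map in the study, chosen there from these samples and so no independent evidence of direction, were all higher in both IL-1β libraries (median 0.95, 0.91 after length correction), and 3 were called.

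**Figure D3:**
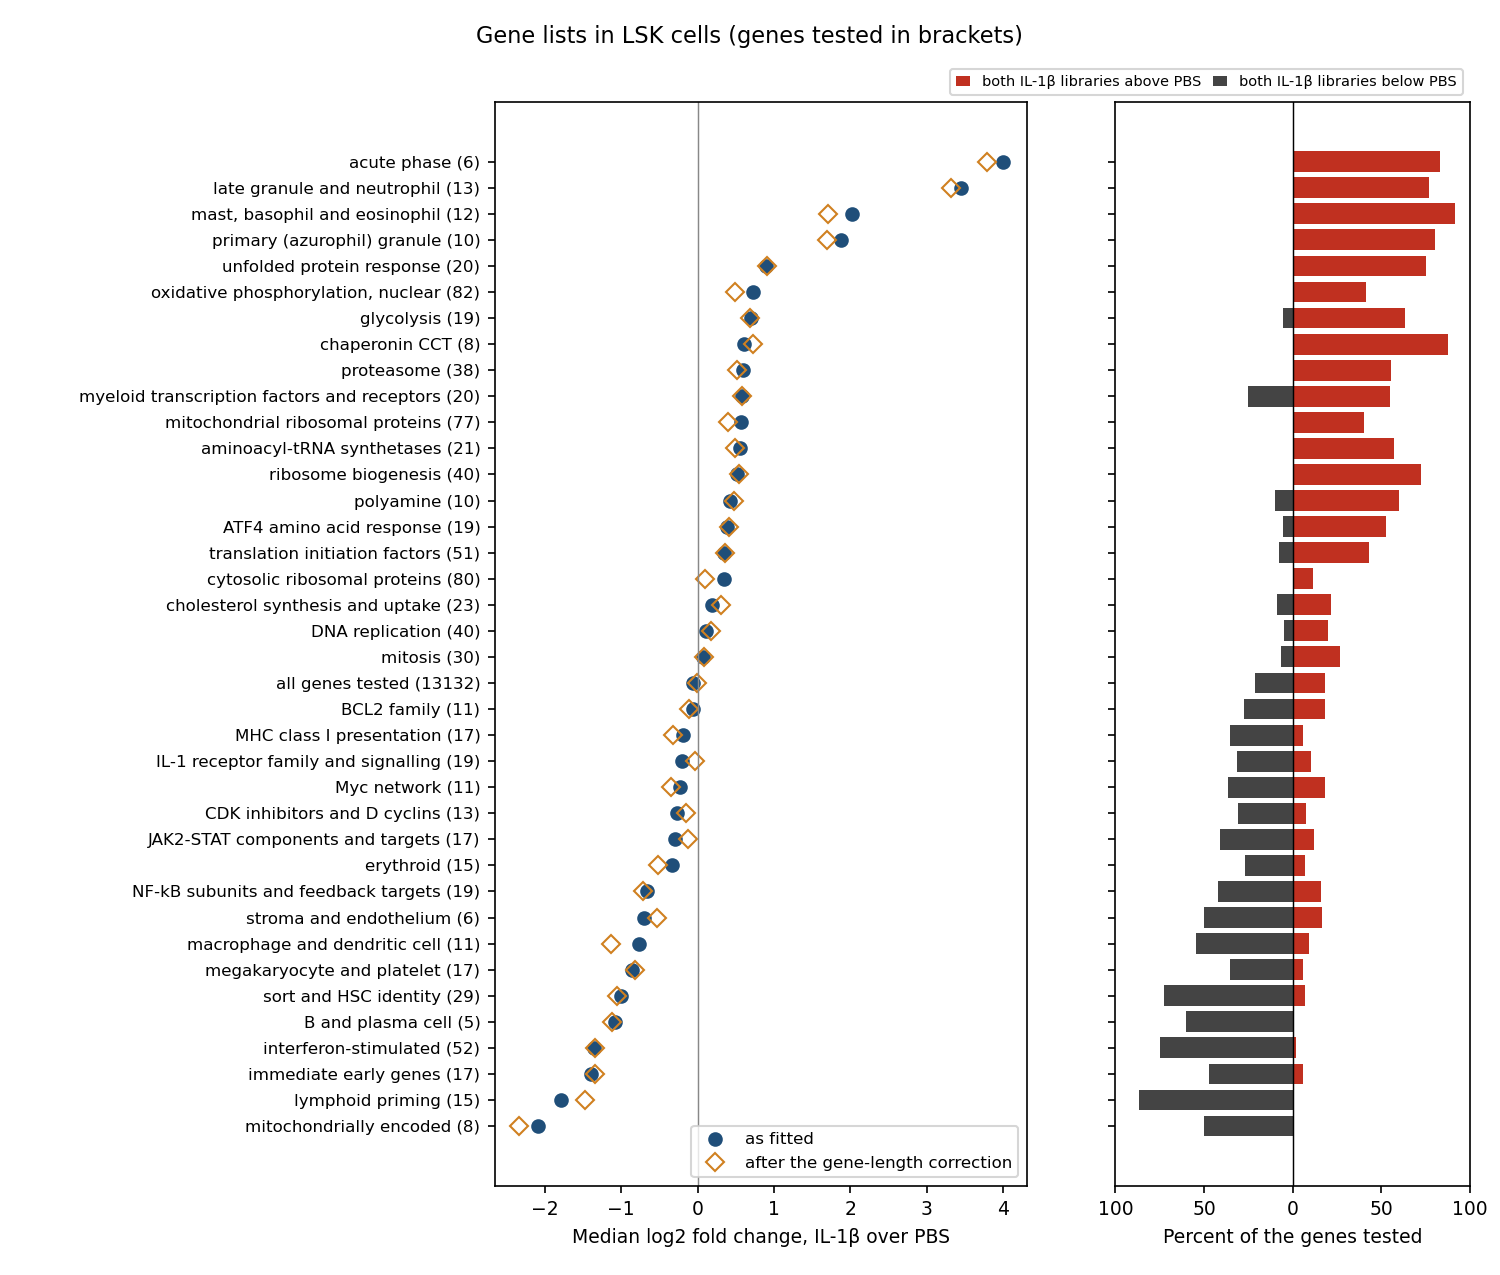
Left, median log2 fold change (IL-1β over PBS) of each gene list with at least 5 tested members in LSK cells, as fitted and after the gene-length correction; right, percent of the tested members with both IL-1β libraries above or below all PBS libraries. Granule, acute-phase and mast cell lists lie highest, with medians from 1.87 to 3.99, and all genes tested lie at -0.06.

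Other called genes had roles outside the lists. Mt1, a metallothionein that binds zinc, was at 30.3, 31.4 and 27.6 CPM with PBS and 171 and 191 CPM with IL-1β, with tight values in both groups (log2 fold change 2.60, standard error 0.23, edgeR's quasi-likelihood test, adjusted p = 0.00270). Rgcc, a regulator of cell cycle kinases, was at 7.31, 7.52 and 9.07 CPM with PBS and 61.2 and 85.03 CPM with IL-1β (3.19, 0.29, adjusted p = 0.00294). Anxa3, an annexin of neutrophil granules, was at 19.2, 22.1 and 19.5 CPM with PBS and 106 and 158 CPM with IL-1β (2.70, 0.27, adjusted p = 0.00388). All 5 libraries separated by treatment for these genes. Alas1, the housekeeping enzyme that starts heme synthesis, was at 77.6, 76.1 and 77.7 CPM with PBS and 256 and 276 CPM with IL-1β, and Chd7, a chromatin remodeler, at 3.80, 2.11 and 4.33 and 53.2 and 29.00 CPM. The PBS values of Alas1 were nearly equal, while the IL-1β values of Chd7 differed from each other. Among falls, Kcng1, a potassium channel subunit, was at 21.1, 29.1 and 22.4 CPM with PBS and 1.95 and 0.744 CPM with IL-1β, Itsn1, an endocytic scaffold, at 62.8, 54.2 and 40.8 and 10.7 and 5.95 CPM, and the predicted gene Gm19590 at 28.01, 39.1 and 44.2 and 2.43 and 3.22 CPM. Sgsm1, a GTPase activator, had 98, 242 and 176 counts with PBS and 0 and 0 with IL-1β. Without IL-1β replicate 1 the 5 rises had adjusted p from 0.0412 to 0.138 and the 4 falls from 0.120 to 0.138, and without replicate 2 from 0.0566 to 0.142 and 0.142 to 0.216. EdgeR then called 3 of the rises (Mt1, Rgcc and Anxa3) in the former and none of the 9 genes in the latter. With all libraries limma-voom called the 5 rises (0.00359 to 0.0327) and none of the 4 falls (0.111 to 0.178).

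The response of LSK cells was set beside that of LK cells, the fraction that holds committed progenitors, to ask where it differed. In LK cells 869 genes were called higher (6.77% of 12835 tested) and 330 lower (2.57%). All 42 genes called higher in LSK cells had a positive log2 fold change in LK cells, and 38 of them were called higher there too. Of the 41 called lower 36 were tested in LK cells and 31 had a negative log2 fold change. In LK cells 9 of those 36 were called lower and 1 was called higher. The lists differed in their medians. Primary granule genes had 1.87 in LSK and 1.82 in LK cells, and unfolded protein response genes 0.89 and 1.08. The list of sort markers and stem cell identity had -1.01 in LSK and -0.39 in LK cells, and lymphoid priming genes -1.79 and -0.33. Interferon-stimulated genes had -1.35 and -0.39, ribosome biogenesis genes 0.52 and -0.06, and nuclear oxidative phosphorylation genes 0.73 and -0.08. Differences between lists were not tested. Gene by gene, the interaction term in edgeR (quasi-likelihood test) called 4 of 13839 genes (0.0289%), and 24 with same-numbered LSK and LK libraries of a treatment as a block, a pairing that the labels give only as numbers. Without PBS replicate 2 of the LSK cells the unblocked count was 336, without IL-1β replicate 1 of the LSK cells it was 199, and without any other single library between 0 and 2.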

How the data were processed

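The authors trimmed reads with fastp 0.20.0, aligned them to GRCm38 with HISAT2 2.0.1 and counted reverse-stranded read pairs on Ensembl genes with featureCounts 2.0.2; read pairs on several genes or places were not counted. Counts were tested here in R 4.3.3 with edgeR 4.0.16 (genes kept by filterByExpr, TMM scaling, robust quasi-likelihood fit, treatment as the only factor). The standard error is the log2 fold change divided by the square root of F. Named are gate, allele and receptor genes, per direction the 12 called genes of smallest p whose libraries did not overlap and whose mean log2 CPM was 1 or more, and in each gene list the called members and the 3 of highest mean TPM, with exceptions stated; a few genes that the rule names are left out of the text. Members and lists were chosen with earlier results of these data known. Ahsp and Mars1 matched no gene. Deviations of same-numbered LSK and LK libraries had r of 0.211, 0.128 and 0.472 with PBS, and other pairs -0.381 to 0.162; with IL-1β the value is 0.100, and with 2 libraries the other pairs mirror it. Alternatives used DESeq2 1.42.0 and limma 3.58.1.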

Additional observations from a re-analysis of the deposited data

Results flagged for a closer look

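The interaction of population and treatment, tested by edgeR's quasi-likelihood test over 5 LSK and 5 LK libraries, was past the threshold for 4 genes. Levels here are CPM on the joint scale of the 10 libraries. Blocked values take same-numbered LSK and LK libraries of one treatment as a block, an alternative chosen after seeing the data.

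Mt1, a metallothionein, was at 31.4, 31.1 and 27.4 CPM with PBS and 166 and 188 CPM with IL-1β in LSK cells. In LK cells it was at 230.3, 194 and 189 CPM with PBS and 277 and 279 CPM with IL-1β. It was higher with IL-1β in both populations, and the LSK log2 fold change exceeded that of LK cells by 2.12 (standard error 0.23, edgeR adjusted p = 0.0123, blocked 0.0127).

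Nfatc2, a calcium-dependent transcription factor, was at 29.5, 22.01 and 18.3 CPM with PBS and 4.73 and 3.43 CPM with IL-1β in LSK cells, and at 1.12, 1.19 and 0.862 and 3.72 and 4.02 CPM in LK cells. It was lower in LSK cells and higher in LK cells, with a difference of -4.34 (standard error 0.52, edgeR adjusted p = 0.0163, blocked 0.0153).

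Lax1, a lymphoid adaptor protein, was at 12.04, 11.8 and 16.2 CPM with PBS and 4.14 and 2.70 CPM with IL-1β in LSK cells, and at 0.319, 0.361 and 0.431 and 2.26 and 3.22 CPM in LK cells. The difference was -4.78 (standard error 0.64, edgeR adjusted p = 0.0310, blocked 0.0311).

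Il18rap, a chain of the IL-18 receptor, was at 60.7, 45.2 and 59.5 CPM with PBS and 28.9 and 12.99 CPM with IL-1β in LSK cells, and at 6.31, 5.62 and 8.83 and 40.8 and 23 CPM in LK cells. The difference was -3.58 (standard error 0.51, edgeR adjusted p = 0.0479, blocked 0.00133). In both Lax1 and Il18rap the LSK libraries of the IL-1β group lay below all PBS libraries and the LK libraries above all PBS libraries. Within LSK cells neither gene was called (edgeR's quasi-likelihood test, adjusted p = 0.107 for Lax1 and 0.121 for Il18rap). Within LK cells both were called higher (0.0209 and 0.00518), with log2 fold changes of 2.85 and 2.21, against -1.90 and -1.33 in LSK cells.

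The next gene by p, the stem cell factor Hlf, had a difference of -3.02 and missed the threshold (edgeR adjusted p = 0.0649, blocked 0.0311). It was 0.0617 with the replicate number as a block across treatments, 0.172 by limma-voom and 0.0783 with thinned libraries. With the block within a treatment and length correction together Hlf did not pass (edgeR adjusted p = 0.0585). Hlf passed with DESeq2 and with no filter. With single libraries left out, the adjusted p ran from 0.00891 to 0.129 for Mt1, from 0.0121 to 0.242 for Nfatc2, from 0.0159 to 0.285 for Lax1 and from 0.0293 to 0.285 for Il18rap. With DESeq2, with no filter and with the replicate number as a block across treatments all 4 passed. With limma-voom only Mt1 passed (adjusted p = 0.0194), and after length correction Il18rap did not (0.0527). With thinned libraries Nfatc2 (0.0783), Lax1 (0.0783) and Il18rap (0.0660) did not pass. With the block within a treatment and length correction together, also chosen after seeing the data, Mt1 (0.0539), Nfatc2 (0.0539) and Lax1 (0.0585) did not pass, and Il18rap did (0.00393).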

How the results depend on the processing

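The numbers of LSK genes called higher and lower with IL-1β (42 and 41) were within 1.5 times of these values with DESeq2's size factors, a filter of at least 10 reads in 2 libraries, no threshold on the fold change, thinned libraries and length correction. They were 417 and 488 with DESeq2, 19 and 2 with limma-voom, 355 and 514 with no filter, 547 and 681 in a joint fit with LK cells, and 314 and 388 with the replicate number as a block. With single libraries left out, they ran from 3 to 280 higher and from 0 to 200 lower. The 4 genes of the interaction became 332 with DESeq2, 1 with limma-voom, 398 with no filter, 1 with thinned libraries, 24 with a block on same-numbered libraries within a treatment and 1 with that block and length correction, and ran from 0 to 336 with single libraries left out. The length correction and the block within a treatment were chosen after seeing the data, and the cause of these shifts was not tested. Medians of the 40 lists kept their sign under every setting with all 5 libraries except thinning, where 2 of 40 changed it, and with single libraries left out 38 to 40 kept it.

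Of 39 called genes named in the text, 39 kept their call with DESeq2, 38 after length correction and 14 with limma-voom. No called gene changed sign. Some genes that were not called changed sign as follows, with the log2 fold change in brackets. With DESeq2 these were Cd79b (0.0197) and Vars (0.0131), with DESeq2's size factors Cd79b (0.0164) and Vars (0.0132), with limma-voom Car1 (-0.43), Cd79b (0.0114) and Vars (0.0138), in the joint fit Car1 (-0.0357), with no filter Car1 (-0.0282), with thinning Cd79b (0.11), and with the replicate block Car1 (-0.21), Cd79b (0.53), Ifi47 (0.0483), H2-D1 (0.0327), Pcna (0.0301) and Myc (0.0164). After length correction these were Cd48 (-0.0564), Car1 (-0.48), Nfkb1 (0.29), Pim1 (-0.00973), Ccnd2 (0.16), Top2a (0.0932), Ccnb2 (-0.0397), Cdk6 (0.20), Vars (0.13) and Junb (-0.00206). With single libraries left out, the lowest and highest values were -0.0973 to 0.46 for Il1rap, -0.13 to 0.23 for Myb, -1.40 to 0.71 for Car1, -0.29 to 0.10 for Nfe2, -0.38 to 0.41 for Cd79b, -0.25 to 0.10 for Irak1, -0.34 to 0.0395 for Ifi47, -0.38 to 0.20 for H2-D1, -0.64 to 0.25 for Ccnd2, -0.38 to 0.12 for Pcna, -0.57 to 0.0996 for Top2a, -0.85 to 0.18 for Cdk6, -0.12 to 0.24 for Vars, -0.0805 to 0.48 for Oaz1 and -0.66 to 0.11 for Ier2. The cause was not tested.

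Depth limits the genes near the floor: in the smallest library, with 4393233 counted read pairs, 3 counts equal 0.744 CPM, against 0.175 CPM in the largest, so falls of genes below about that level cannot be sized.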
